A study of Mus musculus with 51 samples.

Results

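Neutrophils that had entered an inflamed air pouch were compared with neutrophils still in the bone marrow, by RNA-seq and by accessible chromatin. The members are the libraries that the labels place in these tissues: 5 exudate and 3 bone marrow RNA libraries, and 4 ATAC-seq libraries, of 51 samples in the whole series. To these belong the sites whose accessibility the authors list as differing between the same tissues, 4683 more and 2227 less accessible in exudate, of 47164 merged sites.

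The series follows mouse neutrophils through bone marrow, blood, pouch membrane and pouch exudate, and a cultured neutrophil line serves for factor knockouts. An air pouch is a cavity made under the skin of the back by injecting air. All mice compared here received 100 µg of zymosan, a yeast cell wall particle that neutrophils recognise, into a pouch that was 6 days old, and all tissues were taken 4 h later. The bone marrow libraries therefore come from challenged mice, and no library of an unchallenged mouse enters the comparison. RNA came from neutrophils sorted from CX3CR1GFP Ly6GCre-tdTomato reporter mice, in which the neutrophil gene Ly6g drives Cre and a red protein, and was amplified with Smart-seq2, a method for very small inputs. Open chromatin was measured in 75000 sorted Ly6G+ cells per library, 2 libraries per tissue. Sex, age and the number of animals behind each library are not stated in the labels, so p-values measure the spread between libraries, which may be technical.

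Neutrophils are made in the bone marrow, where they fill successive sets of granules with antimicrobial proteins and then stop dividing. Zymosan is sensed by C-type lectin and Toll-like receptors, which signal to NF-kB and AP-1, transcription factors that switch on cytokine and chemokine genes. Interferons act through other factors that bind the interferon response element and switch on antiviral and GTPase genes.

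Promoter sequences are shown first for genes whose promoter overlapped a listed site, because some motifs differed in share between opened and closed promoters. Each is the stretch of 250 bases before the RefSeq gene start (GRCm38.p6), printed 5′ to 3′ on the gene's strand. Capitals mark matches, on either strand, to 5 motifs described beside their shares: the interferon response element, AP-1, NF-kB, C/EBP and PU.1. The shorter RUNX and KLF motifs, which match by letters alone in many windows, were counted over all promoters and are not marked. They were chosen after their values were seen, among promoters free of annotated exons. Rsad2 encodes the antiviral enzyme viperin (chr12:26456453-26456702, minus strand), Isg15 a ubiquitin-like interferon product (chr4:156200819-156201068, minus strand), and Cxcl3 a chemokine that attracts neutrophils (chr5:90785851-90786100, plus strand). Il1b encodes the cytokine interleukin-1 beta (chr2:129371140-129371389, minus strand). These 4 promoters were more accessible in exudate. Retnlg (chr16:48872358-48872607, plus strand) and S100a9 (chr3:90695722-90695971, minus strand), both abundant neutrophil products, had promoters that were less accessible in exudate.
Rsad2: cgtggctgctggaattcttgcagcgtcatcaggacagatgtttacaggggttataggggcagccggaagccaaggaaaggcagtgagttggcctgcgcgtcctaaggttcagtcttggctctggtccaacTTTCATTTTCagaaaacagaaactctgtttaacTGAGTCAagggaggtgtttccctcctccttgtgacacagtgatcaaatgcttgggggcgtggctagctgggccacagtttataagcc
Isg15: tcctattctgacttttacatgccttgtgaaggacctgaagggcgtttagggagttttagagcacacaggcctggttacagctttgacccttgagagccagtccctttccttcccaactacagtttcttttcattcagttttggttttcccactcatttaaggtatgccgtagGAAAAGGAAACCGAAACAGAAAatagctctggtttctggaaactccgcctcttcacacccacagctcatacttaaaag
Cxcl3: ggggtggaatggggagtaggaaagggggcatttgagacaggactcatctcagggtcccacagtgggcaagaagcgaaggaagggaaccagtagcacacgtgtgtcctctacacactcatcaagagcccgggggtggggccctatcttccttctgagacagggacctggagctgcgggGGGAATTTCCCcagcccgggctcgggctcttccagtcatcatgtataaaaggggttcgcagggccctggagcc
Il1b: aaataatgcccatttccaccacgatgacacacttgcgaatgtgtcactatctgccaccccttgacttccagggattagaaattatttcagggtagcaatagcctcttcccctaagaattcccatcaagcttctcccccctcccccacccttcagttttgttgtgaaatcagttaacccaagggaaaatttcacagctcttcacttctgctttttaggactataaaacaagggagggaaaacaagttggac
Retnlg: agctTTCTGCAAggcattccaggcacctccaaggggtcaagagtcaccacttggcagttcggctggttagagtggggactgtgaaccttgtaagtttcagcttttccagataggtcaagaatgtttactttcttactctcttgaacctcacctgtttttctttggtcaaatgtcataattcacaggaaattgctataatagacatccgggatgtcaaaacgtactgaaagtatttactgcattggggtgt
S100a9: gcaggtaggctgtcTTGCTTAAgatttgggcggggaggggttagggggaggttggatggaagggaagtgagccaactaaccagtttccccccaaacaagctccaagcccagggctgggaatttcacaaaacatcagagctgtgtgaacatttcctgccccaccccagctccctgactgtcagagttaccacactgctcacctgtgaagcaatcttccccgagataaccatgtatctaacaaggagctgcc
For Irgm1, an interferon-induced GTPase that guards against intracellular microbes, only the 30 bases before the start are shown (chr11:48871421-48871450, minus strand), since the count table's gene models place the window inside an exon.
Irgm1: GAAATAGAAACCGAAActgattctcaattc

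The sequences differed in which of the 5 marked motifs they matched. Isg15 held 3 overlapping interferon response elements, from position -78 to -57 counted back from the start. Irgm1 held 2, from -30 to -15. Rsad2 held 1 at -120 to -111 and an AP-1 match at -87 to -81. Cxcl3 held an NF-kB match read on both strands, at -73 to -63. The Il1b window held none of these 5. Among the same motifs Retnlg and S100a9 held a C/EBP match each, at -246 to -239 and at -236 to -229. The printed windows do not stand for all: the C/EBP motif was in 11.8% of opened and 10.5% of closed promoters.

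Depth was similar between tissues, at 11.3 to 19.1 M read pairs per exudate library and 9.24 to 18.6 M per bone marrow library. The libraries were uneven in what they sampled: of 12330 genes tested, 26.1% to 46.9% had no read in a given exudate library and 26.7% to 34.9% in a given bone marrow library. The common biological coefficient of variation was 1.86. Rank correlations of library values were 0.651 to 0.714 within bone marrow and 0.356 to 0.541 within exudate. Between the tissues they were 0.366 to 0.452, a range that the one within exudate overlaps. The columns carry tags whose meaning is not stated: all 3 bone marrow libraries are tagged 100, 2 exudate libraries are tagged 100 and 3 are tagged 300. Exudate 300 m4 stood apart, with rank correlations of 0.356 to 0.413 with the other exudate libraries and 0.434 to 0.452 with bone marrow. Results that rest on it are given with and without it.

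The neutrophil label was checked against its markers. Ly6g, the surface protein used for sorting, lay between 53.5 and 249 CPM (read pairs per gene scaled to a common library size, corrected for library composition) in exudate and between 449 and 510 in bone marrow. All 11 neutrophil markers were tested and their summed level was 83500 to 342500 CPM in exudate and 278800 to 348700 in bone marrow. S100a8 made up much of it, at a mean of 158839 CPM in exudate and 169253 in bone marrow. Of the 11 markers, 4 (Ly6g, Camp, Ltf and Ngp) had every exudate library below every bone marrow library and 1 had every one above. Over all tested genes the shares placed in these ways were 8.4% and 3.33%. Markers of other cells were low by comparison. Monocyte and macrophage markers summed to 459 to 1451 CPM in exudate and 1260 to 1308 in bone marrow, with 4 of 11 tested and 1 at 0 in all exudate libraries and 4 at 0 in all bone marrow libraries. B cell markers summed to 0.198 to 207 CPM in exudate and 150 to 181 in bone marrow. Dendritic cell markers reached 407 CPM in exudate and 129 in bone marrow. Erythroid markers reached 1513 CPM in 1 bone marrow library and at most 6.45 in the other two, against at most 1.07 in exudate. Platelet markers reached 149 CPM in exudate 300 m4. Eosinophil and mast cell markers reached 43.0 CPM in exudate and 0.774 in bone marrow. The part of these cells in the results was not tested. In such bulk samples, fewer cells of a type and less RNA per cell cannot be told apart.

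Pyrin, an interferon-responsive GTPase and interleukin-1 beta were among 8 genes called higher in exudate, and 14 genes were called lower, 22 of 12330 tested (0.178%). The test was edgeR's quasi-likelihood test with Benjamini-Hochberg adjusted p under 0.05, which called 0.0649% of genes higher and 0.114% lower. At an unadjusted p under 0.05 it held 2848 genes (23.1%). The calls depend on the libraries: without any 1 bone marrow library edgeR called 0 genes (1954 to 2059 at an unadjusted p under 0.05). It called 1 gene without exudate 100 m1, and 2 each without exudate 100 m2, 300 m1 or 300 m2. Without exudate 300 m4 it called 125 higher and 75 lower. Scaling shifted the split, to 5 higher and 17 lower with RLE and to 6 higher and 24 lower with total counts. The median log2 change of all tested genes was 0.13 as fitted, -0.27 with RLE scaling and -0.46 with total counts, so changes are read against 0.13.

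Mefv encodes pyrin, an inflammasome sensor. Its exudate levels were 540, 576, 276, 118 and 11.9 CPM (order: 100 m1, 100 m2, 300 m1, 300 m2, 300 m4, kept below), and it had no read in the 3 bone marrow libraries. The tissues did not overlap, and exudate was at least 5280-fold higher, taking 3 counts over the bone marrow group as the floor (edgeR adjusted p = 0.011). Irgm1 had 1887, 858, 417, 1079 and 0.229 CPM in exudate and no read in bone marrow, at least 14700-fold higher (edgeR adjusted p = 0.0265). Its level in 300 m4 was far below those of the other 4. Il15ra, the receptor chain that presents interleukin-15, had 365, 260, 256, 263 and 0.459 CPM in exudate and none in bone marrow, at least 3980-fold higher (edgeR adjusted p = 0.0493). Here too the 300 m4 value was close to bone marrow.

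The 5 other called genes were read in bone marrow as well. Il1b was at 13643, 11470, 16605, 13679 and 1531 CPM in exudate and at 0.043, 96.5 and 47.5 CPM in bone marrow, a log2 change of 7.89 (SE 1.64, edgeR adjusted p = 0.0493). Its lowest exudate value still exceeded the highest bone marrow value. Clec4d, a C-type lectin that takes part in fungal recognition, was at 6283, 6902, 9241, 10003 and 1610 CPM against 236, 553 and 348, a log2 change of 4.17 (SE 0.85, edgeR adjusted p = 0.0493). Fth1, the ferritin heavy chain that stores iron, was at 42850, 85943, 78822, 61268 and 12301 CPM against 4793, 3870 and 4937, a log2 change of 3.63 (SE 0.68, edgeR adjusted p = 0.0395). In both, 300 m4 was the lowest exudate library and still above bone marrow. Hdc, which makes histamine, averaged 5178 ± 2907 CPM (SD, n = 5) against 612 ± 280 (n = 3), a log2 change of 3.08 (SE 0.64, edgeR adjusted p = 0.0493). Mxd1, a repressor linked to the end of proliferation, was at 5226 ± 1483 CPM against 690 ± 196, a log2 change of 2.92 (SE 0.55, edgeR adjusted p = 0.0395). No exudate library of either gene overlapped bone marrow.

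**Figure D1:**
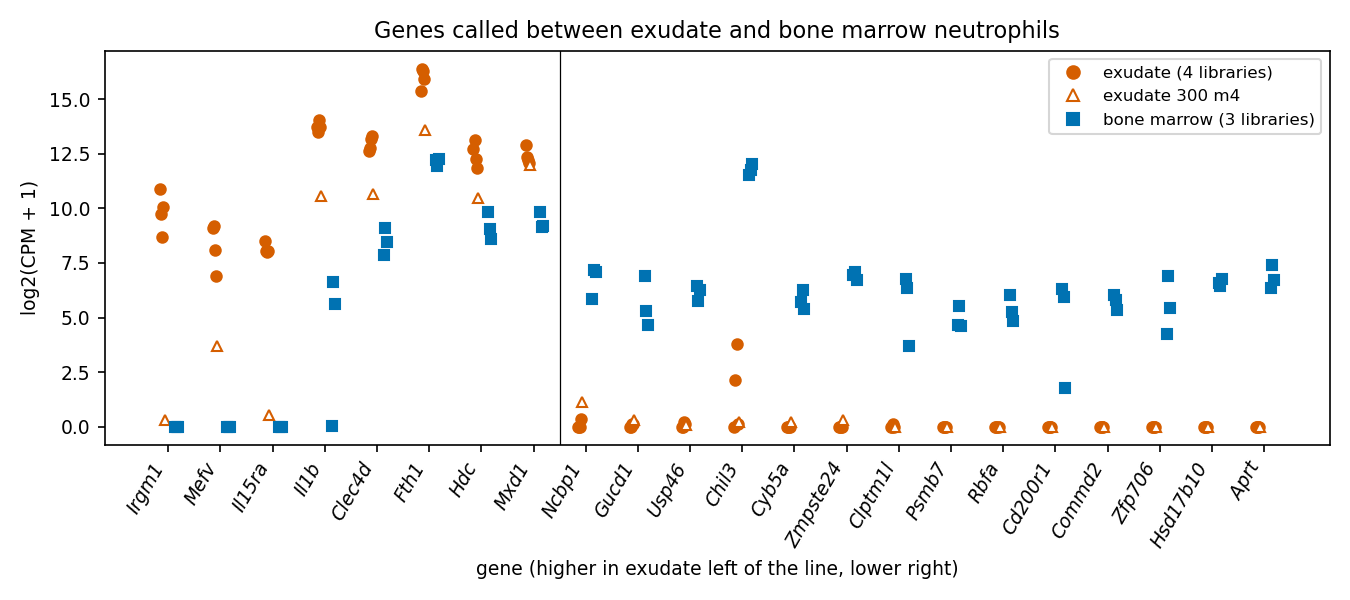
Level of the 22 called genes in each library, as log2(CPM + 1) on the vertical axis with 1 column of points per gene; circles are 4 exudate libraries, the open triangle is exudate 300 m4 and squares are the 3 bone marrow libraries. The 8 genes left of the line lie higher in exudate, with 300 m4 near bone marrow for Irgm1 and Il15ra, and the 14 right of it lie near 0 in exudate except Chil3, which reaches 13 CPM.

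The genes called lower were mostly moderate in bone marrow and almost unread in exudate. Chil3, a chitinase-like protein of neutrophil granules, was at 2930, 3441 and 4137 CPM in bone marrow and at 0, 3.46, 13, 0.0891 and 0.153 CPM in exudate, a log2 change of -10.03 (SE 1.94, edgeR adjusted p = 0.0493). It was the only called gene of the specific granule list. Aprt, which salvages adenine, was at 79.8, 167 and 104 CPM in bone marrow with no read in exudate, at least 2340-fold lower (edgeR adjusted p = 0.0395). Hsd17b10, a mitochondrial dehydrogenase, was at 93.8, 86.1 and 110 CPM with no read in exudate, at least 1940-fold lower (edgeR adjusted p = 0.0395). Psmb7, a proteasome subunit, and Cd200r1, an inhibitory receptor, also had no read in any exudate library, with bone marrow means of 31.2 ± 12.5 and 47.4 ± 40.0 CPM (n = 3). Genes at 0 in all 5 exudate libraries were 5.6% of those tested, and genes at 0 in all 3 bone marrow libraries 10.7%.

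Separation of the libraries gives a description that does not use the fitted spread. Every exudate library lay above every bone marrow library for 3.33% of tested genes, and below for 8.4%. Without exudate 300 m4 these shares were 7.06% and 11.6%. Without the 3 exudate libraries tagged 300, which leaves 1 tag in both tissues, they were 11.6% and 20.4%, and 38 of 40 interferon-stimulated genes, 7 of 9 chemokines and 16 of 19 NF-kB pathway genes were then separated upward, and 8 of 10 specific granule genes downward. With total-count scaling the shares were 2.26% and 11.1%. The lists that follow are read against these shares.

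Interferon-stimulated genes lay higher in exudate as a group. Of 40 tested members, 1 was called (Irgm1, higher), 13 had all exudate libraries above bone marrow and 0 below, and all 40 had a positive log2 change, with a median of 4.78 against 0.13 for all genes. Without 300 m4, 38 of 40 were separated, all but Bst2 and Mx2. Their summed level was 91740, 53630, 67770, 72410 and 12990 CPM in exudate and 3445, 4432 and 4243 in bone marrow. Library 300 m4 was thus low but still above bone marrow, and it was the lowest exudate library for 36 of 40 members. Rsad2, with its promoter shown above, was at 9474, 5490, 10238, 9076 and 74.2 CPM against 33.5, 3.18 and 0.0572, a log2 change of 9.13 that missed the threshold (SE 2.58, edgeR adjusted p = 0.0998). Isg15 was at 608, 1215, 243, 246 and 0 CPM against 1.72, 0 and 2.63 (edgeR adjusted p = 0.117), so its tissues overlapped through 300 m4 alone. Gbp3, an interferon-induced GTPase, had no read in bone marrow and 0.153 to 498 CPM in exudate.

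Cytokines and chemokines, the signals that neutrophils send, had the highest medians of the 24 gene lists, with interferon-stimulated genes next to them. Of 17 tested cytokine genes, 1 was called (Il1b), 4 were separated upward (Csf1, Csf3, Il1b and Il1rn) and 0 downward, with a median log2 change of 4.79. Without 300 m4, 10 were separated. Csf1, a macrophage growth factor, was at 739, 149, 261, 74.4 and 12.2 CPM against 0, 0 and 2.86. Csf3, the granulocyte growth factor, had no read in bone marrow and ranged from 0.0765 to 364 CPM in exudate. Of 9 tested chemokines 0 were called by edgeR, all 9 had a positive change, and the median was 8.73. Only Ccl6 was separated, at 3306, 2901, 3105, 5164 and 7916 CPM against 129, 526 and 465 (log2 change 3.58, SE 0.80, edgeR adjusted p = 0.0529), and without 300 m4 there were 7. Ccl4, which attracts monocytes and other leukocytes, was one of the 5 most abundant exudate genes at 25343, 25666, 67211 and 58093 CPM, but was at 0.153 CPM in 300 m4, against 0, 18.5 and 17.1 in bone marrow. Cxcl3 likewise was at 2655, 2201, 3209, 4807 and 0 CPM against 0, 23.4 and 3.89.

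**Figure D2:**
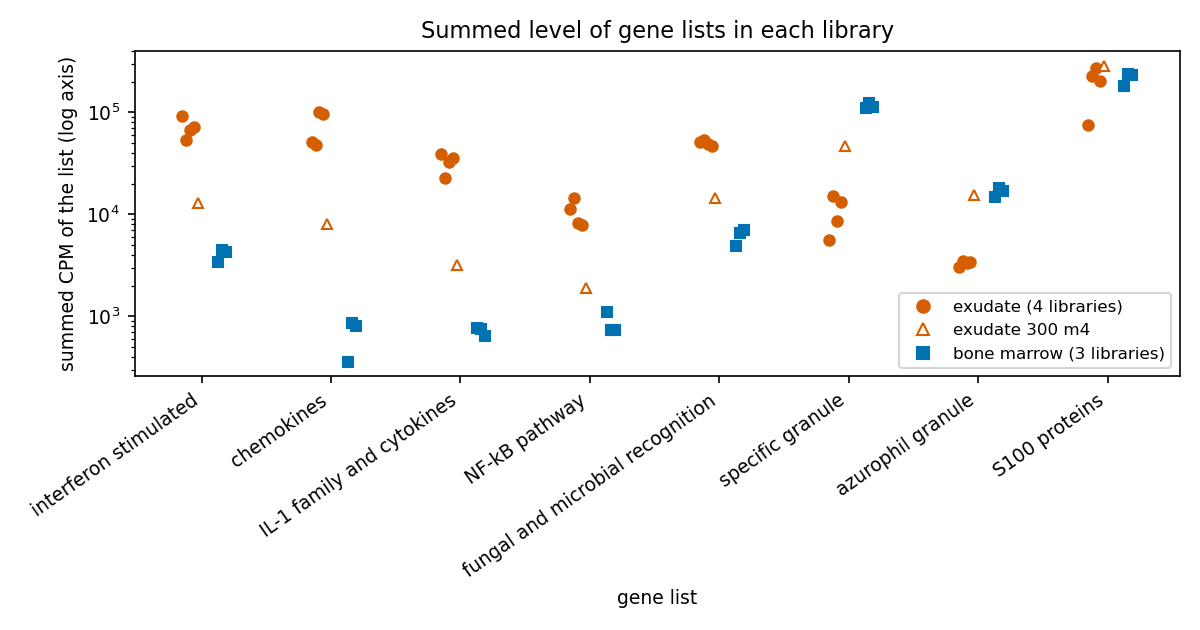
Summed CPM of 8 gene lists in each library, on a log axis; circles are 4 exudate libraries, the open triangle is exudate 300 m4 and squares are bone marrow libraries. Exudate lies above bone marrow for the 5 signalling lists on the left, with 300 m4 lowest, and below it for specific granule genes, where 300 m4 is highest.

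Receptors for fungi and for antibody followed. Of 21 tested genes of fungal and microbial recognition, 7 were separated upward and 0 downward, and 1 was called (Clec4d). Without 300 m4, 13 were separated upward. Clec7a, which encodes dectin-1, the receptor for the beta-glucan of zymosan, was at 1324, 1029, 1200, 1245 and 1261 CPM against 28.1, 114 and 18.8 (log2 change 4.50, SE 0.96, edgeR adjusted p = 0.0516). Its level in 300 m4 lay within the range of the other exudate libraries, whereas 7 of the 9 chemokines were lowest there. Clec4n, which encodes dectin-2, was at 898, 685, 538, 692 and 343 CPM against 0, 8.66 and 13. Of 5 Fc receptor genes 4 were separated upward, of 20 cytokine receptors 5, and of 11 chemoattractant receptors 3 upward and 1 downward. Ptafr, the receptor for platelet activating factor, averaged 688 ± 218 CPM in exudate and 62.4 ± 40.6 in bone marrow. The downward one was Ltb4r1, the leukotriene B4 receptor, at 6.95 to 51.5 CPM against 94.4 to 224. Total-count scaling left 2 of the Fc receptors and 1 of the chemoattractant receptors separated upward. Without 300 m4, 4 Fc receptors, 10 cytokine receptors and 5 chemoattractant receptors were.

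Signalling and transcription genes lay between these groups. Of 19 tested NF-kB pathway genes 4 were separated upward (median log2 change 3.25), 14 without 300 m4, and 2 with total-count scaling. Of 24 AP-1 and immediate early genes 5 were (median 3.40), and 12 without it; 0 of either list were called by edgeR. Nfkb1, the p50 precursor, was at 219, 635, 266, 430 and 744 CPM against 70.2, 29.6 and 27.3, with 300 m4 the highest library. Of the factors that the series knocks out in culture, Cebpb (167 ± 45.9 against 30.6 ± 4.49 CPM), Junb (396 ± 74.6 against 103 ± 76.0) and Klf6 (904 ± 508 against 294 ± 91.6) were separated upward, with log2 changes of 2.45, 1.94 and 1.62 that missed the threshold (edgeR adjusted p = 0.171, 0.181 and 0.2). Relb, Irf5 and Runx1 overlapped between the tissues. Among them Relb had the largest log2 change, 7.20 (SE 2.35, edgeR adjusted p = 0.117), with 300 m4 at 0.0765 CPM.

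Granule genes differed by granule type. Of 10 specific granule genes 5 were separated downward (Cd177, Chil3, Camp, Ltf and Ngp), 0 upward, and all 10 had a negative change, with a median of -1.23. Without 300 m4 there were 7. Ngp, neutrophilic granule protein, was at 52122, 63352 and 53823 CPM in bone marrow and 309, 2560, 975, 1629 and 12212 CPM in exudate (log2 change -4.00, SE 0.87, edgeR adjusted p = 0.0516). Camp, the cathelicidin peptide, was at 18898, 30577 and 28609 CPM against 0, 249, 4.31, 79.8 and 1397. For both, 300 m4 was the exudate library nearest to bone marrow, and the same order held for the summed azurophil granule genes, at 15450 CPM in 300 m4, 3031 to 3482 in the other 4 and 14730 to 18350 in bone marrow. Of 9 azurophil genes tested, 3 were separated downward and 0 called by edgeR. Of 12 genes of gelatinase granules and mature neutrophils, 2 were separated upward (Slc11a1 and Stfa2l1) and 0 downward, with a median of 1.21 and a summed level of 34620 to 52090 CPM in exudate against 15140 to 16500 in bone marrow. Without 300 m4, 5 were separated upward and 3 downward, and the same counts held without the exudate libraries tagged 300. In that last setting the list median was -0.09, against -1.05 for all tested genes.

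Neighbouring abundant genes did not share this shift. S100a8 and S100a9, the calprotectin subunits, overlapped between the tissues, at 158839 ± 62888 and 51050 ± 21554 CPM in exudate against 169253 ± 29350 and 46136 ± 2564 in bone marrow, with log2 changes of -0.09 (SE 0.29) and 0.15 (SE 0.32). The sign of the S100a9 change turned with RLE and total-count scaling. The S100a8 change was -0.62 with RLE and -0.79 with total counts, against -0.27 and -0.46 for all genes. Retnlg, a resistin-like secreted protein of mature neutrophils, was at 16723 ± 10759 CPM against 11179 ± 1568 (log2 change 0.58, SE 0.45).

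Metabolic lists were split. Of 31 oxidative phosphorylation genes 8 were separated downward and 0 upward, with a median of -0.67. Without 300 m4, 11 were separated downward. Of 44 ribosomal protein genes 3 were separated downward and 1 upward, both under the shares of all tested genes (8.4% and 3.33%). Without the exudate libraries tagged 300, 16 of the 44 were separated downward and 1 upward. In that setting 20.4% of all tested genes were separated downward and 11.6% upward. Of 28 glycolysis and hypoxia response genes 4 were separated upward and 1 downward, and without 300 m4 8 upward and 1 downward. Hif1a, the oxygen-regulated factor, was at 906, 270, 293, 607 and 905 CPM against 94.0, 63.5 and 121. Of 11 iron handling genes 2 were separated in each direction: besides Fth1, Slc11a1, a metal transporter of phagosomes, averaged 952 ± 652 against 34.5 ± 28.7 CPM, whereas Hmox1, heme oxygenase, was at 0 to 21.5 CPM against 53.0 to 144. Mcl1, a survival factor of neutrophils, was at 1589 ± 380 against 391 ± 129 CPM. Of 7 NADPH oxidase genes, which make the respiratory burst, only Cybb was separated, at 330 ± 184 CPM in exudate against 959 ± 247. With total-count scaling 4 were separated downward, and without 300 m4 3 were. Most genes of eicosanoid and histamine synthesis did not follow Hdc: of 9 tested, only Hdc was separated upward, 4 were separated downward (Alox5, Lta4h, Ptges and Ptgs1), and the median was -1.92. With total-count scaling 0 were separated upward and 4 downward.

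**Figure D3:**
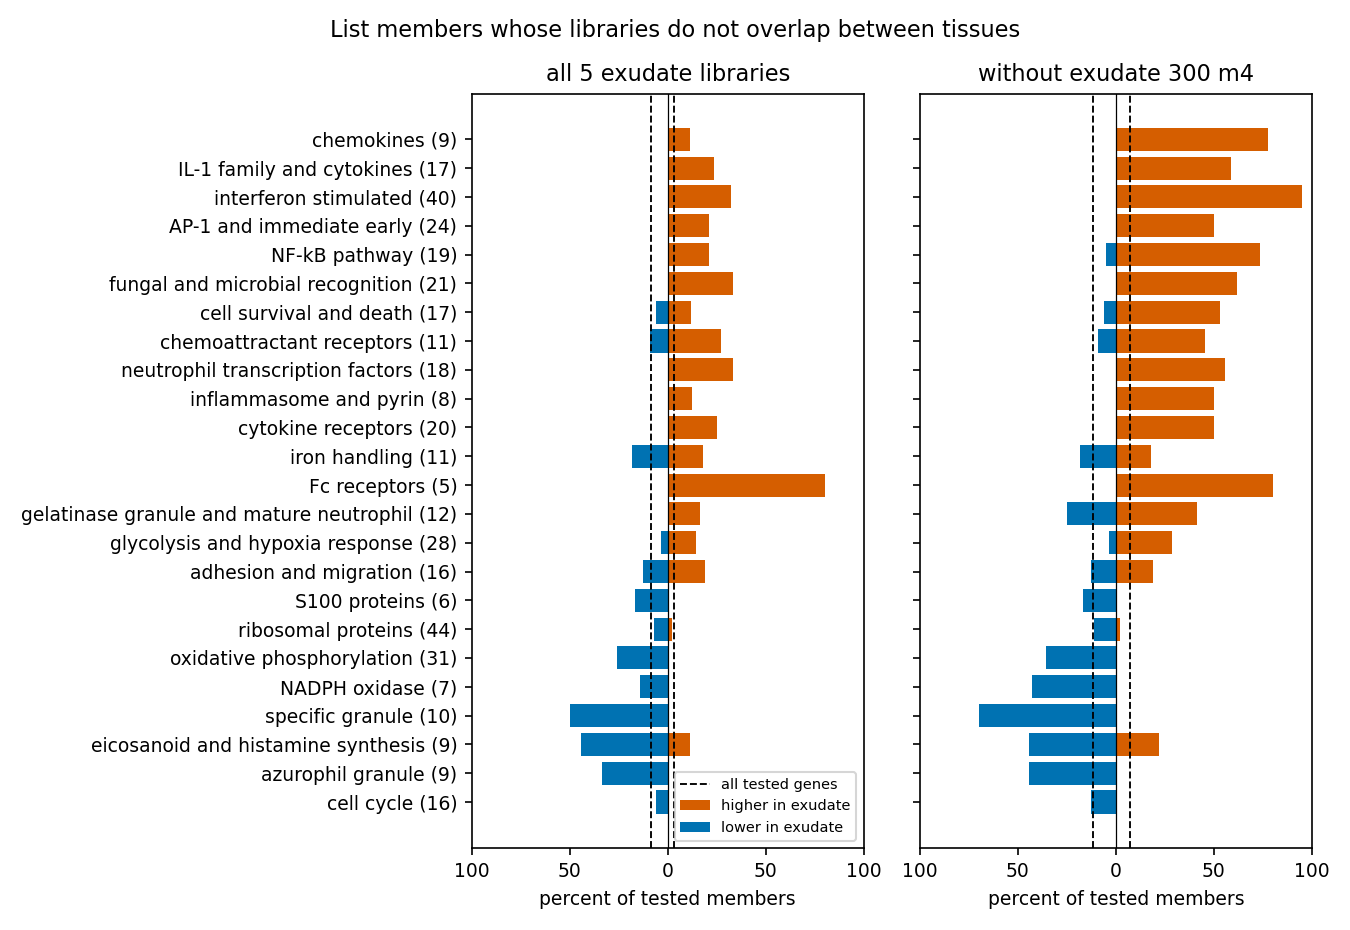
Percent of the tested members of each list (number in brackets) whose exudate libraries all lie above (right) or below (left) all bone marrow libraries, with all 5 exudate libraries and without exudate 300 m4; dashed lines give the shares of all tested genes. Interferon-stimulated genes go from 13 to 38 of 40 when 300 m4 is left out, and specific granule genes from 5 to 7 of 10 downward.

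The 4683 sites listed as more accessible in exudate (opened) were 9.93% of all merged sites and the 2227 less accessible ones (closed) 4.72%. These shares come from the authors' lists and have no value per library, so their spread is not known here. Opened sites lay mostly away from gene starts: 10.9% of them (95% exact binomial interval 10.0% to 11.8%) had their centre within 1000 bp of one, against 20.6% of closed sites (18.9% to 22.4%) and 28.6% of sites in neither list (28.2% to 29.1%). Sites are not independent and the intervals cover counting error only. Introns held 42.2% of opened, 35.2% of closed and 30.1% of unlisted sites.

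**Figure D4:**
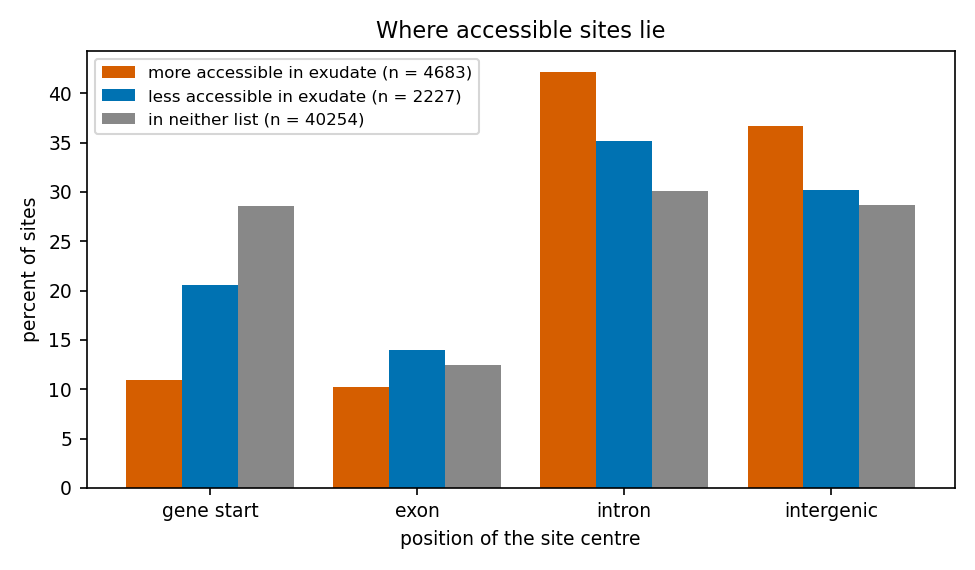
Percent of opened, closed and unlisted sites (bars) by the position of the site centre, with gene starts counted within 1000 bp. Gene starts hold 10.9% of opened and 28.6% of unlisted sites, and introns hold 42.2% and 30.1%.

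The sites with the strongest statistics lay near genes of several kinds. In the authors' deposited table the highest -log10 adjusted p of an opened site was 87.5, at the start of Ifi204, an interferon-inducible gene (chr1:173766439-173767672). In the authors' deposited table the next were 73.6 in an intron of Msl2 and 59.1 at the start of the chemokine gene Ccl3 (chr11:83648940-83650079). The highest of a closed site in the authors' deposited table was 37.5, between genes near Trat1, followed by 36.6 in an intron of Tmprss3. Builds are mm10, which is GRCm38.

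Another pair of tissues, which shares no library with the first, gave lists that overlapped these. It is pouch membrane against blood, as listed by the authors. The list of sites that opened in membrane held 1864 of the opened sites, which is 39.8% of the opened sites and 83.7% of that list of 2228. The list of sites that closed in membrane held 406 of the closed sites, 18.2% of the closed sites and 44.9% of that list of 905. Crossed directions held 0 and 5 sites.

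RNA and chromatin were then set side by side. All 8 genes called higher had an opened site within 50000 bp of their start and 0 had a closed one, where 27.6% of tested protein-coding genes had an opened and 18.1% a closed site. Of the 14 called lower, 0 had an opened and 5 had a closed site (Aprt, Cd200r1, Chil3, Gucd1 and Ncbp1). The closed sites of Aprt, Cd200r1, Gucd1 and Ncbp1 lay 16512 to 48053 bp from the start, and the authors assigned them to other genes. Within 10000 bp, 5 of the genes called higher had only opened sites and 1 of those called lower had only closed sites. At that distance 953 of 9747 tested protein-coding genes had only opened sites and 632 only closed ones. Over all genes, the 2263 with only opened sites nearby had a median log2 RNA change of 1.03, and 8.97% of them were separated upward and 4.99% downward. The 1340 with only closed sites had a median of -0.82, with 2.24% upward and 14.3% downward. For 9747 tested protein-coding genes the median was 0.07 and the shares 3.67% and 9.11%. Genes are not replicates, so these are descriptions with no test. The fitted size rests on the scaling and on the libraries used. The median near opened sites alone was 0.37 with total counts, where that of all tested genes was -0.456. With only libraries tagged 100 these medians were 0.22 and -1.05. Taken library by library as a log2 ratio to the bone marrow mean (0.5 CPM added), the median was -0.119, -0.0286, 0, 0.0834 and -0.656 near opened sites alone, -1.98, -1.8, -1.68, -1.59 and -1.44 near closed sites alone, and -0.939, -0.786, -0.614, -0.539 and -1.0 over all protein-coding genes. In each library the genes near opened sites thus lay above all genes and those near closed sites below, and no library had a median near 1.03. Within 10000 bp the medians were 1.94 and -0.87.

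**Figure D5:**
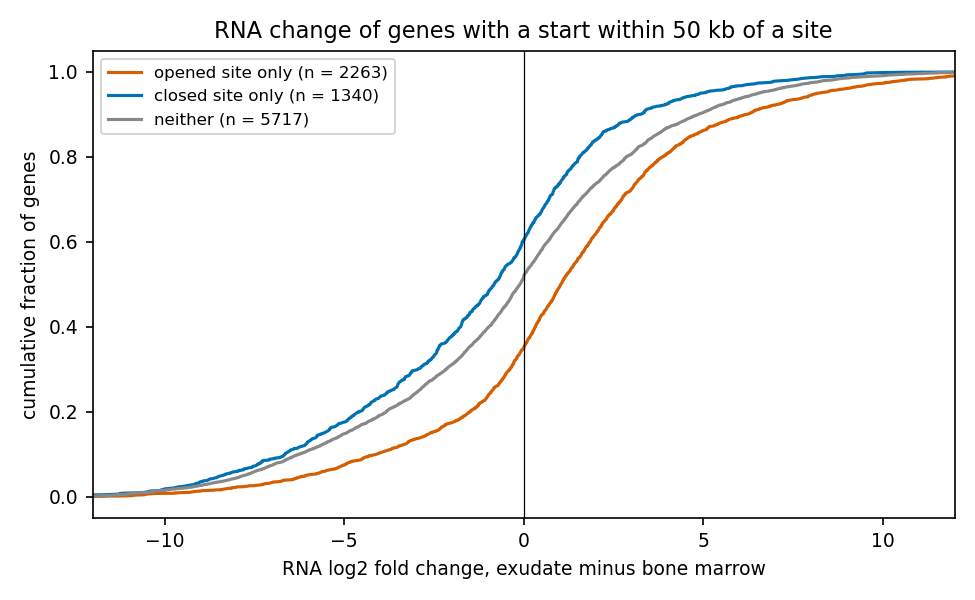
Cumulative fraction of protein-coding genes (vertical axis) by RNA log2 fold change, exudate minus bone marrow (horizontal axis), for genes with only opened sites, only closed sites or neither within 50000 bp. The medians are 1.03, -0.82 and -0.11.

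Gene groups differed in their sites as in their RNA. Of the tested interferon-stimulated genes 38 had an opened site within 50000 bp and 1 a closed one, of the 9 chemokines 9 and 3, and of 19 NF-kB pathway genes 17 and 2. Of the 10 specific granule genes 3 had an opened and 5 a closed site. Ngp had 5 closed sites, and Il1b, Clec4d and Clec7a had 7 opened sites each. S100a8 and S100a9 had 10 and 9 closed sites within 50000 bp and Retnlg had 9, while the RNA of these 3 genes overlapped between the tissues. Neighbouring genes share sites in these counts: the 9 of S100a9 are all among the 10 of S100a8, and Clec4d shares sites with Clec4n. The authors assigned the sites near Clec7a to Clec1a, Olr1 and Tmem52b.

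Promoters that opened and closed differed in how often they held some motifs. Among RefSeq windows of 250 bases, 321 overlapped an opened site and 418 a closed one, of 32851 in all. The interferon response element (GAAA, any 2 bases, then GAAA, on both strands, as all motifs here) was in 15.9% of opened promoters, 0.718% of closed and 2.98% of all. The AP-1 motif (TGANTCA) was in 20.2%, 2.87% and 6.75%. The NF-kB motif (GGGA, any 2 bases, then TTCC, where 1 stretch can match on both strands) was in 4.05%, 0.478% and 1.21%. The C/EBP motif (TTGCNNAA) was in 11.8%, 10.5% and 9.56%, PU.1 (GAGGAAGT) in 5.61%, 4.55% and 2.44%, RUNX (TGTGGT) in 14.3%, 12% and 14%, and KLF (CCACCC) in 30.5%, 36.4% and 28.1%. Among 10751 windows that overlapped an unlisted site only, the interferon response element was in 2.2%, AP-1 in 3.84% and NF-kB in 1.37%. C/EBP was in 6.86% of them, PU.1 in 2.72%, RUNX in 10.3% and KLF in 32%. Motifs were counted separately and may overlap each other. A match describes letters in the window and not binding.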

How the data were processed

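RNA of sorted neutrophils was taken from the deposited table of the authors, which holds counts: raw read pairs per gene, counted with featureCounts 1.5.0-p2 without regard to strand and at mapping quality 255, per the file headers. Antisense or overlapping partners therefore cannot be told apart. STAR is named as aligner, and cutadapt, Bowtie2, MACS2 and DESeq2 for ATAC-seq, per the submitters' processing notes (mm10). The site lists the authors deposited carry a value read here as −log10 of an adjusted p, since its lowest values lie just above that of 0.05. The merged sites the authors deposited carry a score of unknown scale and 2 other columns (peaks per merged site and site width), and none of these was used as a measure.

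Counts of all 15 tissue libraries were fitted together with edgeR 4.0.16 (quasi-likelihood, TMM scaling, low counts removed by filterByExpr at 10 per library, 15 in total and a share of 0.7). The contrast was exudate minus bone marrow, and a gene counted as called below 0.05 after Benjamini-Hochberg adjustment. The fit pools the spread of 4 tissues. No reads carry molecular identifiers, so floors (3 counts over a group) cover counting error only. Gene IDs matched symbols for 99.6% of 50600 rows. Tag and number of the columns match no sample title, so a column is a replicate of its group only. Members and lists (24 gene lists and 11 marker lists) were chosen with earlier results of these data known. Named were the called genes, up to 2 separated members per list at 16 CPM or more, 6 factors and the 5 most abundant genes of each tissue, with other list members beside their family. A gene that this rule names is not reported here. Genes whose promoters are printed were added after their values were seen.

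Sites were placed by the count table's gene models, and promoters were searched in RefSeq windows (GRCm38.p6). The method was tested on simulated data. Alternatives were RLE and total-count scaling, DESeq2 1.42.0, limma 3.58.1 voom, no filter, fewer libraries, a replicate block and other distances. Leaving out the exudate libraries tagged 300 was added after seeing the data.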

Additional observations from a re-analysis of the deposited data

Results flagged for a closer look

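Of 60 named genes with any spread in exudate that are reported, 19 had 1 of the 5 exudate libraries far from the other 4, judged by the gap to its neighbour over the whole range of the group. The cut-off is one that normally distributed values pass in about 1 of 20 groups. CPM values are skewed and most of these genes were chosen for their change, so 1 of 20 is no expected share here. A gene read in only 1 exudate library is flagged by construction. Library 300 m4 accounts for 7 of them, 100 m2 and 300 m1 for 5 each, 100 m1 for 2 and 300 m2 for 0. In exudate 300 m4 the highest values of the group that stood apart were Actb at 90800 CPM (next 18900), Camp at 1400 CPM (next 249), Cyb5a at 0.153 CPM (next 0), Ncbp1 at 1.22 CPM (next 0.267), Ngp at 12200 CPM (next 2560), Serpinb1a at 264 CPM (next 0.178) and Zmpste24 at 0.229 CPM (next 0). In exudate 300 m1 the highest values of the group that stood apart were Chil3 at 13 CPM (next 3.46), Clptm1l at 0.0784 CPM (next 0), Hmox1 at 21.5 CPM (next 4.54) and Rpl4 at 34.6 CPM (next 0.154). The lowest value that stood apart there was Mcl1 at 940 CPM (next 1640). In exudate 100 m2 the highest values of the group that stood apart were Atp5a1 at 0.0768 CPM (next 0), Csf3 at 364 CPM (next 69.6), Ndufb10 at 3.15 CPM (next 0.198), Relb at 242 CPM (next 68.4) and Slc11a1 at 2120 CPM (next 702). In exudate 100 m1 the highest values of the group that stood apart were Gbp3 at 498 CPM (next 127) and Ptafr at 1070 CPM (next 645). Values under 1 CPM amount to a few reads.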

How the results depend on the processing

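Of 12330 genes, 22 were called. The count was 266 without the filter on low counts (of 36284 genes), 339 with only libraries tagged 100, 968 with limma voom, 1421 with voom and library weights, 1685 with DESeq2, and 0 with only the exudate and bone marrow libraries fitted by edgeR (1209 of 6768 genes at an unadjusted p under 0.05). Leaving out 1 library gave 0 to 200 calls, the highest without exudate 300 m4 and 0 without any 1 bone marrow library. Without any 1 of the other exudate libraries there were 1 or 2 calls. Of the 22 genes, 22 were called by DESeq2, 19 by voom and 7 without the exudate libraries tagged 300 (33 calls). The labels do not say whether same-numbered libraries of the same tag come from the same animal. Their deviations from the group means were uncorrelated (r = -0.011 and -0.0172), which cannot settle this with so few libraries and so wide a spread. The main fit uses no pairing, and a replicate block gave 290 calls. Library separation held for 1446 genes, for 1761 to 2339 with 1 library left out, and for 3946 without the libraries tagged 300.

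Counting gene starts within 2000 bp put 17.1% of opened and 26.6% of closed sites there, and sites at a -log10 adjusted p of 2 or more put 22.5% of closed ones there. The median RNA change near opened sites alone was 1.94 within 10000 bp, 1.615 for the nearest start only, 0.3686 with total counts, 0.2181 with only libraries tagged 100 and 0.2181 without exudate libraries tagged 300, and 0.7825 to 1.365 with 1 library left out. Near closed sites alone it was -1.49 with total counts, -2.648 with only libraries tagged 100, -2.651 without exudate libraries tagged 300, and -1.445 to -0.4049 with 1 library left out. Part of this is the median of all genes, which was -0.456 with total counts and -1.05 with tag 100. The S100a8 change ranged from -0.2293 to 0.1514 with 1 library left out and turned sign without exudate 100 m1. Other settings put S100a8 lower: -0.6162 with RLE and with DESeq2, -0.7892 with total counts, -0.673 with only tag 100 and -1.198 with voom. With the replicate block it was -0.6563 and called lower (edgeR adjusted p = 0.0484). The S100a9 change turned to -0.3751 with RLE and with DESeq2, -0.5482 with total counts and -0.0949 with 2 groups. It was -0.2458 with the replicate block, and -0.1606 without the libraries tagged 300 and with only tag 100. The cause was not tested. List medians kept their sign in 24 of 24 lists with RLE and 23 with total counts (S100 proteins turned), and in 21 without the libraries tagged 300. These signs are not set against the median of all genes, which was -1.05 without the exudate libraries tagged 300. A gene with no read in a group lies under its floor of 0.0499 CPM in exudate or 0.0576 CPM in bone marrow, by counting error only.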
